A study of Homo sapiens with 6 samples.

Results

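ATF4 and 9 regulators that act with it in the integrated stress response were followed in A375 cells, a human melanoma line, with and without forced expression of HMGB2, a high-mobility-group protein that binds and bends DNA. The genes were ATF4, ATF3, ATF5, DDIT3, TRIB3, CHAC1, SESN2, NUPR1, CEBPB and DDIT4. They were picked by name, with earlier results of the same libraries known, and make up 10 of the 58302 gene identifiers counted. The difference between the groups was part of what chose them, so for them it is described with its error and without a p-value, and the number called in the fit over all genes is given for scale only.

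The data were poly(A) RNA sequencing counts from 6 libraries, 3 from A375 cells that stably overexpressed HMGB2 (HMGB2OE) and 3 from A375 cells that carried the empty vector. The HMGB2OE line was made by lentiviral transduction. The labels give no treatment, and each library came from its own cell pellet. The reporting form of the study calls its sequencing replicates technical, and no source places the pellets in separate transductions or clones, so every error and p-value below measures the spread between pellets of a line. In bulk RNA, fewer cells with a transcript and less of it per cell cannot be told apart.

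The integrated stress response begins when a kinase (PERK, GCN2, PKR or HRI) phosphorylates the translation factor eIF2. Global protein synthesis then slows, while ATF4 messenger RNA, which carries upstream open reading frames, is translated more. ATF4 pairs with C/EBP proteins on a composite DNA element and switches on genes for amino acid uptake and synthesis, for tRNA charging and for further regulators such as CHOP (encoded by DDIT3). Because ATF4 is controlled largely in translation, RNA counts report on the messages of the pathway and not on the phosphorylation of eIF2 or on the ATF4 protein.

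Each library held between 45925053 and 56755212 reads assigned to genes. Reads that aligned to several places took 2.58% to 10.6% of the reads, the highest share being in HMGB2OE replicate 3. HMGB2 itself, at 7250, 7729 and 7562 normalized counts with empty vector and 15095, 16848 and 14609 in HMGB2OE cells, was higher in every HMGB2OE library by 1.05 ± 0.10 on the log2 scale (SE; DESeq2, adjusted p = 4.4e-22). A normalized count is a read count divided by the library's size factor. Of the melanoma markers, S100B, PRAME, CSPG4 and MITF were read in all libraries, and MLANA, TYR, DCT and TYRP1 were near 0. SOX10 stood at 0 in the counts used, but those counts kept 0% of the reads seen for it when each strand is counted, and 3.37% for PMEL and 1.82% for S100A1, so the levels of these genes were not measured in full. The 11 melanoma markers summed to 56587 to 87494 normalized counts with empty vector and to 48648 to 59740 in HMGB2OE cells, and the 14 markers of other cell types to 3455 to 5304 and to 4988 to 6309, with PTPRC and INS at 0 throughout. The lower melanoma sum was nearly all CSPG4, with means of 63078 and 40693, while the median log2 difference of the 8 melanoma markers with an adjusted p was 0.11. Of the markers of other cell types, KRT5 read 5.05, 11.5 and 279 with empty vector and 250, 200 and 289 in HMGB2OE cells. Empty vector replicate 3 thus resembled the HMGB2OE libraries for this keratinocyte keratin. KRT14, another keratin, read 522, 443 and 642 with empty vector and 421, 530 and 694 in HMGB2OE cells, without that jump. EPCAM, an epithelial marker, read 372, 323 and 258 and then 315, 212 and 257, also without it. The part of these markers in the results below was not tested.

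The composite site that ATF4 and C/EBP proteins share, the C/EBP-ATF response element, was searched as TGATGNAA on both strands of RefSeq promoter windows, which run from 250 bases before to 50 bases after a start site (build GRCh38.p14). It occurred in 3.62% of the 35116 windows and in at least 1 window of 4.46% of the 27305 genes. Among the stress regulators, 9 had a window in the table and 2 held the element, CHAC1 and ATF3. The element with 10 bases on either side is given for both, because it is the sequence these genes share. It is also given for 5 of the 16 listed ATF4 target genes that held it. All 5 passed an adjusted p under 0.05 in DESeq2, whereas TARS1, SLC7A1, FGF21 and JDP2 also held the element and did not. Capitals mark the element, every stretch is written on the gene's own strand, and TTGCATCA or TTTCATCA is the element read from the opposite strand.
ATF3, chr1:212565206-212565233, plus strand: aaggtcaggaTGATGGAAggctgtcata
CHAC1, chr15:40953252-40953279, plus strand: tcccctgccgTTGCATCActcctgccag
ASNS, chr7:97872459-97872486, minus strand: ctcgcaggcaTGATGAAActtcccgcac
CEBPG, chr19:33374061-33374088, plus strand: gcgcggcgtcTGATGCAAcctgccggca
GARS1, chr7:30594835-30594862, plus strand: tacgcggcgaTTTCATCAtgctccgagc
IARS1, chr9:92293693-92293720, minus strand: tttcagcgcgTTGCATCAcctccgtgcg
MARS1, chr12:57488054-57488081, plus strand: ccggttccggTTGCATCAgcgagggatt

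The element of CHAC1 began 209 bases before the start site and that of ATF3 191 bases before the more upstream of its start sites in the table. The 250 bases before the CHAC1 start site are given whole, since CHAC1 is the regulator with the element before its only start site in the table. Capitals mark the element in the sequence, which lies on the plus strand at chr15:40953221-40953470.
CHAC1 upstream: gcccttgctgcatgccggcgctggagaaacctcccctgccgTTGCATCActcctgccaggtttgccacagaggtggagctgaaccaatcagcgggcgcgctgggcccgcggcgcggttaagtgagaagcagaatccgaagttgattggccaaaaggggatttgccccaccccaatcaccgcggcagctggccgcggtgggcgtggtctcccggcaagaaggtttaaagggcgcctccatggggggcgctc

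Other sites were searched in the same windows. An AP-1 site (TGANTCA) stood in windows of ATF5 and DDIT3, where 9.37% of all genes had it in at least 1 window. A C/EBP site (TTGCNNAA), which overlaps the composite element in part, stood in windows of ATF3, ATF5 and SESN2. Of all genes, 12.7% had it in at least 1 window. The cyclic AMP response element (TGACGTCA), present in 1.85% of all windows, was in none of theirs. A missing match says only that these letters were not in the window.

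The regulators spanned a wide range of abundance. Per length of exon, in TPM (the share of all transcripts after division by length), the order with empty vector was ATF4 at 865 ± 54.3 (SD, n = 3), TRIB3 at 615 ± 52.9, DDIT4 at 537 ± 45.0, CEBPB at 215 ± 40.9, CHAC1 at 159 ± 3.60, SESN2 at 99.2 ± 14.5, DDIT3 at 27.5 ± 1.90, ATF3 at 25.6 ± 2.26, ATF5 at 13.4 ± 1.37 and NUPR1 at 6.60 ± 3.33. The libraries overlapped between TRIB3 and DDIT4 and between DDIT3 and ATF3, but TRIB3 stood above DDIT4 within each empty vector library, whichever length was used. ATF3 came before DDIT3 when the longest or the canonical transcript set the length, so that pair was not ordered. CEBPB and CHAC1 were level at those lengths, at 150.9 and 150.6 TPM with the longest and 111.4 and 111.2 with the canonical transcript. That pair was not ordered either. In HMGB2OE cells DDIT4, at 414 ± 26.3 TPM, stood above TRIB3, at 253 ± 50.9 TPM, and the libraries of these genes no longer overlapped. In the counts used, ATF4 remained the most abundant of the regulators in both groups, with 632 ± 54.3 TPM in HMGB2OE cells. Those counts kept only part of the reads seen when each strand is counted for DDIT4 (48.0%), ATF5 (34.3%), DDIT3 (23.2%) and CEBPB (74.7%). The levels of these genes may therefore be too low. Their places in the order, and that of DDIT4 against ATF4 and TRIB3 in either group, are uncertain.

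**Figure D1:**
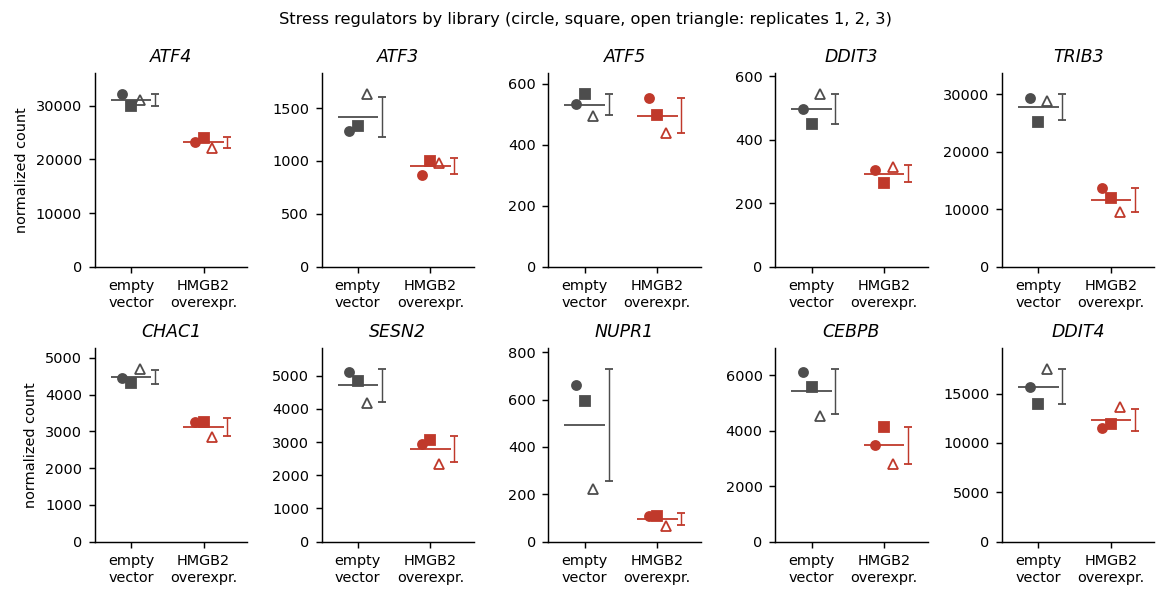
Normalized count of each stress regulator (vertical axes, each starting at 0) in the 3 empty vector libraries (grey) and the 3 HMGB2OE libraries (red). Lines are group means, bars SD, and the symbols circle, square and open triangle are replicates 1, 2 and 3. In 9 of the 10 panels every red symbol lies below every grey one, ATF5 being the exception, and the grey triangle of NUPR1 lies far below the other grey symbols.

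The transcription factor at the head of the pathway, ATF4 (chr22:39519695-39522683), read 32208, 29993 and 31058 normalized counts in the empty vector libraries and 23320, 24068 and 22124 in the HMGB2OE libraries. All HMGB2OE libraries lay below all empty vector libraries, and the means of 31086 ± 1108 and 23171 ± 981 (SD, n = 3) differed by -0.42 ± 0.09 on the log2 scale (HMGB2OE over empty vector, SE), a level 25.5% lower.

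ATF3 (chr1:212565334-212620777), a stress-induced factor of the same bZIP family that acts downstream of ATF4, read 1282, 1330 and 1633 with empty vector and 871, 1003 and 984 in HMGB2OE cells. The groups did not overlap, empty vector replicate 3 being the highest library, and the log2 difference was -0.57 ± 0.14. DDIT3 (chr12:57516588-57521737), which encodes CHOP, a factor linked to cell death under lasting stress, read 497, 448 and 543 with empty vector and 303, 263 and 313 in HMGB2OE cells, a log2 difference of -0.76 ± 0.15 with no overlap. Only 23.2% of the reads seen for DDIT3 when each strand is counted were kept in the counts used, because its exons overlap those of MARS1 and MBD6 and ambiguous reads are discarded. With the strand counts summed the difference was -0.69, but those counts hold reads of its neighbours.

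ATF5 (chr19:49928702-49933935), a relative of ATF4 that is likewise controlled by upstream reading frames, was the regulator that differed least. Its libraries read 534, 564 and 495 with empty vector and 551, 497 and 437 in HMGB2OE cells, so the groups overlapped, and the difference of -0.10 ± 0.14 on the log2 scale was within the spread of the libraries. ATF5 also kept only 34.3% of its stranded reads, with exons that overlap NUP62 and IL4I1. CEBPB (chr20:50190830-50192668), a C/EBP partner of ATF4, read 6117, 5588 and 4520 with empty vector and 3484, 4112 and 2798 in HMGB2OE cells. Replicate 3 was the lowest CEBPB library of both groups, the groups did not overlap, and the log2 difference was -0.64 ± 0.17. CEBPB kept 74.7% of its stranded reads, with an antisense gene, CEBPB-AS1, over part of its exons.

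Among the effectors, TRIB3 (chr20:362835-397559), a pseudokinase that restrains ATF4 and CHOP in negative feedback, stood at 29430, 25257 and 28817 normalized counts with empty vector and at 13628, 11905 and 9495 in HMGB2OE cells. The highest HMGB2OE library lay far below the lowest empty vector library, and the mean was 58.1% lower, -1.25 ± 0.15 on the log2 scale.

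CHAC1 (chr15:40952962-40956512), an enzyme that degrades glutathione, read 4445, 4320 and 4696 with empty vector and 3257, 3246 and 2847 in HMGB2OE cells, a log2 difference of -0.53 ± 0.11. SESN2 (chr1:28259518-28282491), a leucine sensor that restrains mTORC1, read 5115, 4853 and 4161 against 2948, 3063 and 2345, a log2 difference of -0.76 ± 0.14. Neither gene's groups overlapped. DDIT4 (chr10:72273919-72276036), another mTORC1 inhibitor, which also responds to hypoxia and glucocorticoids, read 15659, 13936 and 17503 with empty vector and 11489, 11884 and 13621 in HMGB2OE cells. Its groups came close to touching, and the log2 difference of -0.35 ± 0.13 was the smallest after that of ATF5. Its counts held 48.0% of its stranded reads.

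NUPR1 (chr16:28532708-28539008), a small chromatin-associated stress protein, had the widest gap and the widest spread. Its libraries read 663, 594 and 223 with empty vector and 109, 110 and 65.3 in HMGB2OE cells, a log2 difference of -2.38 ± 0.35. Empty vector replicate 3 was nearer to the HMGB2OE libraries than to its own group, and still above all 3. Without that library the log2 difference was -2.72, and without empty vector replicate 1 it was -2.11.

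**Figure D2:**
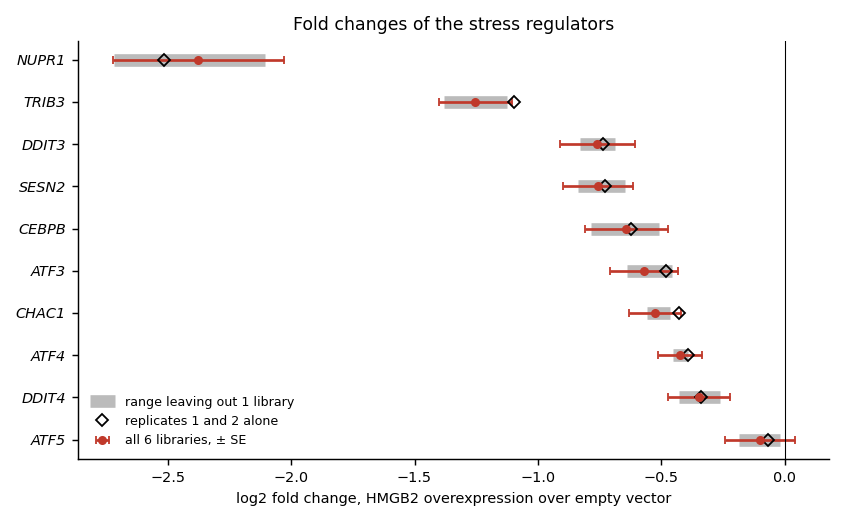
Log2 fold change of each stress regulator (horizontal axis, HMGB2OE over empty vector). Red points with bars are the fit on all 6 libraries ± SE, grey bands the range when 1 library is left out, and open diamonds the fit on replicates 1 and 2 alone. Every point, band and diamond lies left of 0, from NUPR1 at -2.38 to ATF5 at -0.10, and the band of ATF5 comes closest to 0.

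The 10 log2 differences had a median of -0.61, against 0.00272 over the 18836 genes with an adjusted p. At an adjusted p under 0.05 in DESeq2, 8 of the 10 were called lower and none higher, where 2.64% of all genes were called lower and 2.29% higher. The uncalled regulators were ATF5 and DDIT4. In 9 of the 10 the groups did not overlap, with the HMGB2OE libraries lower, where 10.7% of all genes did so. The regulators had been picked with this contrast known, and these shares are given for scale. Leaving out HMGB2OE replicate 1 left 5 called (DDIT3, TRIB3, CHAC1, SESN2 and NUPR1), and leaving out any other single library left between 6 and 9. The share of all genes called in those fits was not computed.

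Set against ATF4 in the same library, the regulators were not lower to the same degree. TRIB3 stood at 914, 842 and 928 normalized counts per 1000 of ATF4 with empty vector and at 584, 495 and 429 in HMGB2OE cells, so that TRIB3 was lower by more than ATF4 in every HMGB2OE library. Likewise NUPR1 went from a mean of 15.9 to 4.07 per 1000, DDIT3 from 16.0 to 12.7 and SESN2 from 152 to 120, each without overlap between the groups. Over all genes with an adjusted p other than ATF4, 1.54% had a ratio that was lower without overlap and 56.2% one that was higher, since ATF4 itself was lower. ATF5 was among the latter, with 17.1 per 1000 with empty vector and 21.3 in HMGB2OE cells. For ATF3, CHAC1, CEBPB and DDIT4 the ratios overlapped, with means that differed by between -14.4% and 5.79%. Of these, ATF3 and CHAC1 held a composite element in a promoter window, and CEBPB and DDIT4 did not. Whether the element bears on the ratio was not tested.

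Replicate 3 of each group departed from replicates 1 and 2 for part of the regulators. Measured as the log2 difference of replicate 3 from the mean of the other libraries of its group, NUPR1 lay at -1.49 in empty vector replicate 3 and at -0.74 in HMGB2OE replicate 3. In the same libraries CEBPB lay at -0.37 and -0.44 and SESN2 at -0.26 and -0.36. DDIT4 and DDIT3 departed the other way, at 0.24 and 0.22 and at 0.20 and 0.15, and ATF4 hardly departed, at -0.0010 and -0.099. TRIB3 and CHAC1 departed in opposite directions, with 0.080 and 0.10 in empty vector replicate 3 and -0.42 and -0.19 in HMGB2OE replicate 3. Empty vector replicate 3 was the lowest of its group for 4 of the 10, where 40.9% of all genes had that order, and HMGB2OE replicate 3 for 7 of the 10, where 39.3% did. With a term for the third replicates in the fit, or with replicates 1 and 2 alone, all 10 differences stayed negative. DDIT4 was then called as well, in fits that called 8.61% of all genes lower and 8.71% higher with the term, and 9.44% lower and 8.01% higher in replicates 1 and 2 alone.

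**Figure D3:**
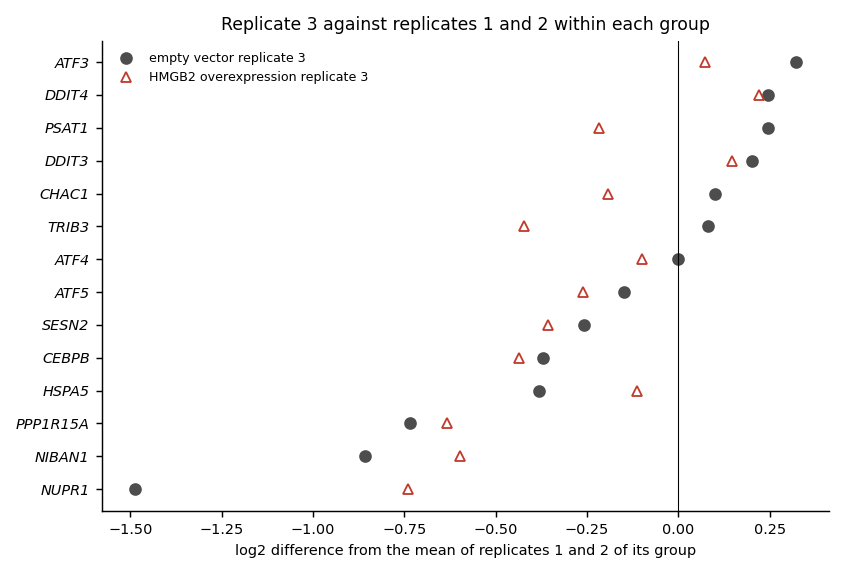
Distance of replicate 3 from the mean of replicates 1 and 2 of its own group (horizontal axis, log2 scale) for the 10 stress regulators and for PPP1R15A, NIBAN1, PSAT1 and HSPA5. Grey circles are empty vector replicate 3 and open red triangles HMGB2OE replicate 3. NUPR1 lies at -1.49 and -0.74, whereas ATF4 lies near 0 in both.

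The other genes of the pathway were counted over lists of textbook members, 89 genes in all. These lists, and those further on, were written with earlier results of these data known. Their counts and p-values are therefore no independent test. Of these, 39 fell and 0 rose at an adjusted p under 0.05 in DESeq2, with a median log2 difference of -0.34, against background rates of 2.64% lower and 2.29% higher. At an unadjusted p under 0.05 in DESeq2, 54 were lower and 0 higher, where 1377 of 18836 genes were lower and 1315 higher. Those counts over all genes also stand beside the unadjusted DESeq2 counts of the lists below. For edgeR, unadjusted counts over all genes were not made. edgeR called 33 lower and 0 higher, against 1.52% and 1.28% of all genes.

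Few of the genes that start the response passed the test. The list held 20 genes for eIF2, its kinases, its exchange factor and its phosphatases, and for proteins that regulate these. In DESeq2, 2 fell and 0 rose (1 and 0 in edgeR, and 2 and 0 at an unadjusted p under 0.05), and the median difference was -0.01. The kinase genes EIF2AK3 (PERK), at 388 ± 21.8 with empty vector and 428 ± 20.3 in HMGB2OE cells (SD, n = 3), and EIF2AK4 (GCN2), at 4870 ± 174 and 5224 ± 246, differed by 0.14 ± 0.13 and 0.10 ± 0.09 on the log2 scale, and neither was called (adjusted p = 0.738 and 0.741, DESeq2). EIF2AK2 (PKR) differed by 0.12 ± 0.11 (DESeq2, adjusted p = 0.709). EIF2AK1 (HRI) was at 6218, 6643 and 7010 with empty vector and at 7279, 7237 and 7766 in HMGB2OE cells, without overlap. Its difference of 0.17 ± 0.10 was not called (DESeq2, adjusted p = 0.467), but it was called in replicates 1 and 2 alone (0.047) and with the term for the third replicates (0.0371). PPP1R15A, which encodes GADD34, the stress-induced subunit that directs the eIF2 phosphatase and is itself a target of the pathway, fell from 7545, 6878 and 4328 to 3035, 3015 and 1949 normalized counts, with a log2 difference of -1.23 ± 0.22 (DESeq2, adjusted p = 4.39e-06). EIF2S2, the beta subunit of eIF2, fell by 0.33 ± 0.09 on the log2 scale (DESeq2, adjusted p = 0.00553), but it passed neither in edgeR (adjusted p = 0.0629) nor when any library other than empty vector replicate 3 was left out (up to 0.217).

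Genes for amino acid supply, the best-known targets of ATF4, had the largest share of calls among these lists. Of 22, 18 fell and 0 rose, with a median of -0.68, and in edgeR 16 fell and 0 rose. Unadjusted, 20 were lower and 0 higher. PHGDH and PSAT1, enzymes of serine synthesis, fell from 40133 ± 6565 to 19126 ± 3072 and from 41153 ± 4123 to 26984 ± 2753 normalized counts (SD, n = 3), with log2 differences of -1.07 ± 0.16 and -0.61 ± 0.12 (DESeq2, adjusted p = 1.33e-08 and 8.01e-05). PCK2, which feeds serine and glycerol synthesis from oxaloacetate in mitochondria, had a log2 difference of -1.37 ± 0.20 (DESeq2, adjusted p = 4.17e-09), and PYCR1, a proline synthesis enzyme, of -0.89 ± 0.13 (7.82e-10). MTHFD2 and SHMT2, of mitochondrial one-carbon metabolism, had -0.83 ± 0.12 and -0.68 ± 0.11 (6.75e-09 and 6.97e-08). SLC3A2, the heavy chain of the large neutral amino acid and cystine exchangers, fell from 43734, 41043 and 37327 to 24849, 23752 and 19964, with a log2 difference of -0.83 ± 0.12 (DESeq2, adjusted p = 3.7e-09). SLC7A11, the cystine transporter, fell by 0.39 ± 0.12 on the log2 scale (DESeq2, adjusted p = 0.027). That call was lost in edgeR (adjusted p = 0.0931) and on leaving out empty vector replicate 1 (0.185) or 2 (0.238) or HMGB2OE replicate 2 (0.257) or 3 (0.329). ASNS, asparagine synthetase, had only 173, 137 and 146 normalized counts against 64.5, 62.1 and 49.5, a log2 difference of -1.37 ± 0.23 (DESeq2, adjusted p = 8.83e-07). Of the bases in its exons 49.3% are shared on the same strand with a readthrough gene, so reads there are discarded and its level is uncertain.

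Among 21 aminoacyl-tRNA synthetase and tRNA export genes, 10 fell and 0 rose, with a median of -0.48 (9 and 0 in edgeR, and 14 and 0 unadjusted). MARS1, IARS1, SARS1 and GARS1, which charge methionine, isoleucine, serine and glycine, fell, with log2 differences of -0.75 ± 0.11, -0.61 ± 0.10, -0.92 ± 0.14 and -0.65 ± 0.13 (DESeq2, adjusted p from 4.61e-09 for MARS1 to 9.81e-05 for GARS1). WARS1, for tryptophan, fell from 26175 ± 4209 to 13112 ± 2437 normalized counts (SD, n = 3), a change of -49.9% (DESeq2, adjusted p = 7.36e-07). MARS1 and DDIT3 are transcribed towards each other on chromosome 12 and overlap at their ends, and 39.6% of the exon bases of DDIT3 are shared with another gene.

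Of 26 further targets of ATF4 and CHOP, 9 fell and 0 rose, with a median of -0.36 (7 and 0 in edgeR, and 18 and 0 unadjusted). GDF15, a secreted stress cytokine, fell from 1776 ± 365 to 760 ± 192 normalized counts (SD, n = 3), a log2 difference of -1.22 ± 0.21, and NIBAN1 from 9156 ± 2788 to 3524 ± 808, a log2 difference of -1.38 ± 0.23. The differences were -0.66 ± 0.11 for CEBPG, a C/EBP partner of ATF4, -0.72 ± 0.13 for GADD45A, a growth arrest gene, and -0.54 ± 0.10 for VEGFA, the angiogenic factor. All 5 had an adjusted p between 5.54e-07 and 1.48e-05 in DESeq2.

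Within the lists of amino acid supply, synthetase and other target genes, 16 of the 53 genes with a promoter window held the composite element. Of those 16, 12 were called lower, with a median log2 difference of -0.63. Of the other 37, 16 were called lower, with a median of -0.35. In the amino acid supply list the order of the medians was the opposite, -0.69 with the element and -0.83 without, while the synthetases had -0.61 and -0.18 and the other targets -0.66 and -0.26.

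**Figure D4:**
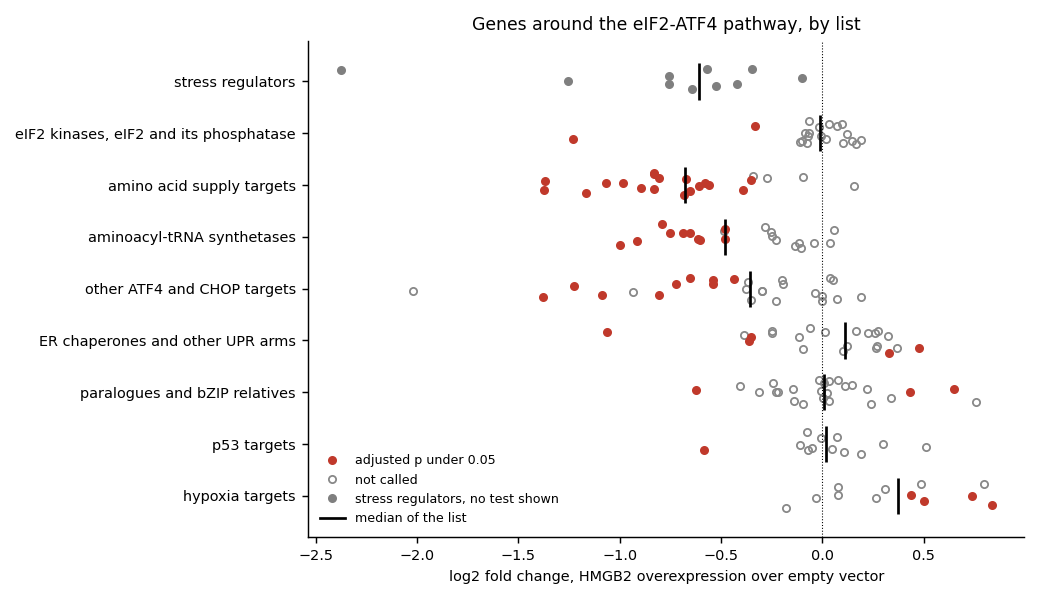
Log2 fold change (horizontal axis, HMGB2OE over empty vector) of each gene with an adjusted p, one row per list. Red points passed an adjusted p of 0.05 in DESeq2, open grey points did not, filled grey points are the stress regulators, shown without a test, and black bars are medians. The amino acid supply list lies furthest left of the tested lists, with a median of -0.68, and the ER chaperone list lies around 0, with a median of 0.11.

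The arms of the unfolded protein response that do not pass through eIF2 were counted separately. Of 22 genes for ER chaperones and for the ATF6 and IRE1 arms, 3 fell and 2 rose, with a median of 0.11 (6 lower and 9 higher were called in replicates 1 and 2 alone and with the term for the third replicates, and 0 and 1 in edgeR, where 5 were lower and 7 higher at an unadjusted p under 0.05). HSPA5, the ER chaperone BiP, read 44363, 42303 and 33228 with empty vector and 39195, 43617 and 38245 in HMGB2OE cells, with a difference of 0.01 ± 0.13. CALR, calreticulin, rose by 0.48 ± 0.09 (DESeq2, adjusted p = 1.82e-05), and ERN1, the sensor IRE1, fell by 1.06 ± 0.26 on the log2 scale (0.00176), a call that was lost without empty vector replicate 1 (adjusted p = 0.0768) and in edgeR (0.0714). HERPUD1, at -0.36 ± 0.09, XBP1, at -0.35 ± 0.11, and MANF, at 0.33 ± 0.09, passed in DESeq2 (adjusted p = 0.00491, 0.0318 and 0.0108) but not in edgeR. HERPUD1 and MANF lost the call when any library other than empty vector replicate 3 was left out, and XBP1 when empty vector replicate 1 or any HMGB2OE library was.

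Paralogues of the regulators were read beside them. Of 27 paralogues and bZIP relatives, 25 had an adjusted p, 1 fell and 2 rose, with a median of 0.01. The counts were 0 and 1 in edgeR, and 5 and 3 both in replicates 1 and 2 alone and with the term for the third replicates. TRIB1 was at 1777 ± 43.5 with empty vector and 1664 ± 134 in HMGB2OE cells, and TRIB2 rose from 4329 ± 541 to 5831 ± 574, by 0.43 ± 0.13 (DESeq2, adjusted p = 0.0329), where TRIB3 was lower. SESN3 rose by 0.65 ± 0.16 (DESeq2, adjusted p = 0.00321; edgeR 0.04), SESN1 differed by 0.24 ± 0.18 (adjusted p = 0.639) and CHAC2 by 0.02 ± 0.18 (0.984), and NUPR2 was listed at 0 in all libraries. TRIB2 was not called in edgeR (adjusted p = 0.103) or on leaving out empty vector replicate 1 or 2 or HMGB2OE replicate 1 or 2 (up to 0.318), and SESN3 was not called on leaving out any library other than empty vector replicate 3 (up to 0.147). FOSL1 fell by 0.62 ± 0.16 on the log2 scale (DESeq2, adjusted p = 0.0042), and was not called in edgeR (0.0655) or without empty vector replicate 1 (0.0904), empty vector replicate 2 (0.0725) or HMGB2OE replicate 3 (0.073).

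Several of the regulators answer to other inputs too, and the targets of those inputs were read beside them. Of 12 targets of p53, which also controls SESN2, 1 fell and 0 rose (0 and 0 in edgeR, and 1 and 1 unadjusted in both), with a median of 0.02. CDKN1A, the cell cycle inhibitor p21, was at 9652 ± 433 with empty vector and 9313 ± 210 in HMGB2OE cells. PLK3 was the gene that fell, with a log2 difference of -0.58 ± 0.15 (DESeq2, adjusted p = 0.00277, and 0.0508 in edgeR). It was not called without empty vector replicate 1 (0.106), HMGB2OE replicate 2 (0.069) or HMGB2OE replicate 3 (0.0591). GDF15, GADD45A, BBC3, TNFRSF10B and PMAIP1, which p53 also controls, were counted with the ATF4 and CHOP targets. Their log2 differences were -1.22 ± 0.21, -0.72 ± 0.13, -0.54 ± 0.13, -0.37 ± 0.14 and -0.35 ± 0.13. TNFRSF10B and PMAIP1 were not called. SESN1, which p53 controls too, was counted with the paralogues, at 0.24 ± 0.18. The median of the p53 list therefore depends on where shared genes were placed. Of 12 hypoxia targets, the class to which DDIT4 belongs, 4 rose and 0 fell (3 and 0 in edgeR, 7 and 1 both in replicates 1 and 2 alone and with the term for the third replicates, and 8 and 0 unadjusted in DESeq2), with a median of 0.37. NDRG1 rose from 10140, 10334 and 9855 to 18083, 18665 and 17377, by 0.84 ± 0.09 (DESeq2, adjusted p = 1.02e-18), and CA9 and P4HA1 by 0.74 ± 0.17 and 0.44 ± 0.10 (0.000861 and 0.000473). BNIP3 rose by 0.50 ± 0.16 (adjusted p = 0.0385), a call lost in edgeR (0.131) and on leaving out any library other than empty vector replicate 3. P4HA1 lost its call without empty vector replicate 1 (0.0596) or 2 (0.0603) or HMGB2OE replicate 1 (0.0704). DDIT4, with its difference of -0.35, did not share the direction of the 4 genes that rose. Of the 12 listed, 2 had a negative difference. For SLC2A1 it was -0.18 ± 0.10, without overlap between the groups and not called (DESeq2, adjusted p = 0.403). VEGFA, at -0.54 ± 0.10, was counted with the ATF4 and CHOP targets and not in this list.

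The genes whose profile over the 6 libraries lay nearest to the mean profile of the regulators were MARS1, MID1IP1, SLC3A2, RELB, SHMT2, VCX3A, GADD45A and PTX3. Likeness was the root mean square distance between centred log2(normalized count + 1) profiles, which ran from 0.0370 for MARS1 to 0.0584 for PTX3, against a median of 0.421 over 13284 genes. The regulators had been picked with this contrast known, so any gene near their mean profile is lower in HMGB2OE cells. Of these 8 genes, 4 were on the pathway lists, which hold 89 genes and were also chosen with earlier results known. Nothing is read from that count. The same profile measure on TMM-scaled CPM shared 7 of the 8. The mean profile of the regulators was 0.47, 0.38 and 0.29 on the centred log2 scale in the empty vector libraries and -0.32, -0.31 and -0.52 in the HMGB2OE libraries.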

How the data were processed

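Total RNA from A375 cells was enriched for poly(A) RNA and made into libraries with a kit that does not mark strand, and close to equal numbers of reads fell on either strand. Per the labels, the submitters' processing notes name bcl2fastq 2.20, FastQC, Trimmomatic, STAR and the build GRCh38. The deposited values were raw read counts per gene from STAR, of which the column that ignores strand was used here. The aligner's version, and the annotation release of the counts, were not given in the sources used here.

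Symbols came from GENCODE, which matched 57532 of the 58302 identifiers. Unmatched identifiers held 0.0575% of the reads. Rows for unmapped, multimapped, ambiguous and unassigned reads were left out of library sizes, and ambiguous reads made up 10.7% to 11.4% of all reads. All genes were fitted with DESeq2 1.42.0 in R 4.3.3 (Wald test, default settings, group alone), as in the study's methods, and p-values were adjusted by Benjamini-Hochberg over 18836 genes. TPM values were computed from the counts and the union of each gene's exons. edgeR 4.0.16 (quasi-likelihood, TMM), other scalings and filters, summed stranded counts, the replicate number as a block, a term for the third replicates, replicates 1 and 2 alone and leaving out each library were the alternatives. The scripts were tested on simulated counts. With 3 libraries against 3, an exact permutation test of a single value cannot go below 0.1, so none was used.

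The regulators and all gene lists were chosen with earlier results of these data known. Named were the regulators, up to 5 genes per list with the smallest adjusted p and a mean of at least 50 normalized counts, 17 genes fixed by name, and the 8 genes nearest in profile. KRT5, KRT14, EPCAM and the melanoma markers were added as markers. BBC3, TNFRSF10B and PMAIP1 were added because p53 also controls them.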

Additional observations from a re-analysis of the deposited data

How the results depend on the processing

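All 10 regulators kept a negative log2 difference in all 14 alternatives, which refit the same libraries. Dropping the filter that DESeq2 applies before adjusting p leaves the fold unchanged by construction, so this is a description and no test. Of 140 values, 139 lay within 1 SD of those reported, the SD being that between libraries on the log2 scale, pooled over the groups. The exception was CHAC1, at -0.43 in replicates 1 and 2 alone. The number of regulators called lower was 8 in the reported fit and 5 to 9 with 1 library left out, and HMGB2 stayed between 0.98 and 1.09 on the log2 scale with 1 library left out. Pathway genes called lower numbered 39, and 29 to 48 with 1 library left out. Pathway genes called higher went from 0 to 2 with a term for the third replicates and to 2 in replicates 1 and 2 alone. ER chaperone and related genes called lower, 3 as reported, numbered 0 in edgeR, 6 with the term for the third replicates, 6 in replicates 1 and 2 alone and 0 to 6 with 1 library left out. Those called higher, 2 as reported, numbered 1 in edgeR, 9 with the term, 9 in replicates 1 and 2 alone and 1 to 6 with 1 library left out. With the term, 20 amino acid supply, 15 synthetase and 17 other target genes were lower, and in replicates 1 and 2 alone 19, 16 and 17, where 18, 10 and 9 were reported. The causes were not tested. Of 784 values for other named genes, 15 gained a call, 60 lost one and 709 stayed the same. For the 8 genes nearest in profile, staying the same meant a log2 difference within 1 SD of that reported. Per-length levels depended on the transcript taken for the length.

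Libraries with the same replicate number correlated at 0.0906, 0.142 and 0.349 in their deviations from the group means, and replicates 1 and 2 of empty vector both correlated best with HMGB2OE replicate 2, so the numbers were not taken as pairs. With the replicate number as a block, 9 regulators and 52 pathway genes were called lower, and of the ER list 5 were lower and 7 higher. The share of all genes called was not computed for that fit or for the fits with 1 library left out. Nothing about the lists is therefore read from how those counts moved.

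At 45925053 reads or more a library, depth limited few regulators. The lowest, NUPR1, had 58 raw reads in HMGB2OE replicate 3. DDIT3, ATF5 and DDIT4 rested on 23.2%, 34.3% and 48.0% of their stranded reads. The libraries are pellets of 1 line per group, so the line and HMGB2 cannot be told apart.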

Other observations

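Departures of the third libraries were also seen in some stress genes outside the regulators and in the marker CSPG4. PPP1R15A stood at 4328 in the third empty vector library, below 6878 and 7545 in the others, and NIBAN1 at 5937, below 10709 and 10821. CSPG4, a melanoma surface proteoglycan, stood at 42385, below 73004 and 73844. In each of these genes the third HMGB2OE library was likewise the lowest of its group, at 1949, 2622 and 33872 normalized counts. Over all genes with an adjusted p, the third library was lowest in 40.9% with empty vector and 39.3% in HMGB2OE cells. The melanoma markers MITF, PRAME and S100B departed less than CSPG4. On the log2 scale they lay at 0.025, 0.14 and -0.061 with empty vector and at 0.12, 0.024 and -0.094 in HMGB2OE cells. PSAT1 was higher in the third empty vector library, at 45911 beside 38637 and 38911, and lower in the third HMGB2OE library, at 24319 beside 29818 and 26816.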
